A study of Mus musculus with 8 samples.

Results

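Barcodes from the single-cell ATAC-Seq (scATAC-Seq) of mouse FFPE spleen were split by the share of their fragments that mapped to the mitochondrial genome (chrM), and the nuclear chromatin of both ends was compared. The high group held barcodes with at least 15% of fragments on chrM and the low group those with at most 2%. In the set without reverse crosslinking (−RV), 330 of 2406 barcodes were high and 506 were low. In the set with reverse crosslinking (+RV), 1656 of 18620 were high and 4081 were low. Together the groups held 6573 of 21026 barcodes. The groups were chosen by the measured chrM share, so these shares are given as a description only. Fragments on chromosomes 1 to 19 entered the choice as part of each barcode's total, but their positions did not. The authors had earlier kept barcodes by their number of fragments and by a fraction near start sites.

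Spleens of 8-week-old C57BL/6J mice, fixed in formalin and embedded in paraffin (FFPE), gave the nuclei, with no genotype or treatment that differed between groups. They were tagmented with 20 indexed Tn5 transposases, mixed, barcoded by split-and-pool ligation, and divided only then for DNA purification with or without reverse crosslinking, the step that undoes formaldehyde bonds. Each condition has 2 labelled libraries, but their fragments lie in 1 pooled set per condition and were not told apart, so each condition is 1 sample and no test between barcodes was made. Intervals are 95% exact intervals for counting error only, since the fragments of 1 barcode are not independent.

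Mitochondrial DNA is a small circle present in many copies per cell, carries no nucleosomes, and is readily cut by Tn5 wherever it remains with the nuclei. Its genes encode only some subunits of the respiratory chain, and most mitochondrial proteins come from nuclear genes. Cells differ in how many mitochondria they hold. Red cell precursors need mitochondria for heme synthesis and later remove them by mitophagy, and pancreatic acinar cells, which secrete digestive enzymes, are rich in mitochondria. Stretches of the mitochondrial genome have also been copied into the nuclear chromosomes during evolution, and reads from both places can look alike.

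The chrM share formed 1 continuous distribution. Its median was 6.18% in −RV and 5.61% in +RV. Within the high groups the median was 18.3% in −RV and 18.02% in +RV, and within the low groups 0.949% and 0.865%.

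**Figure D1:**
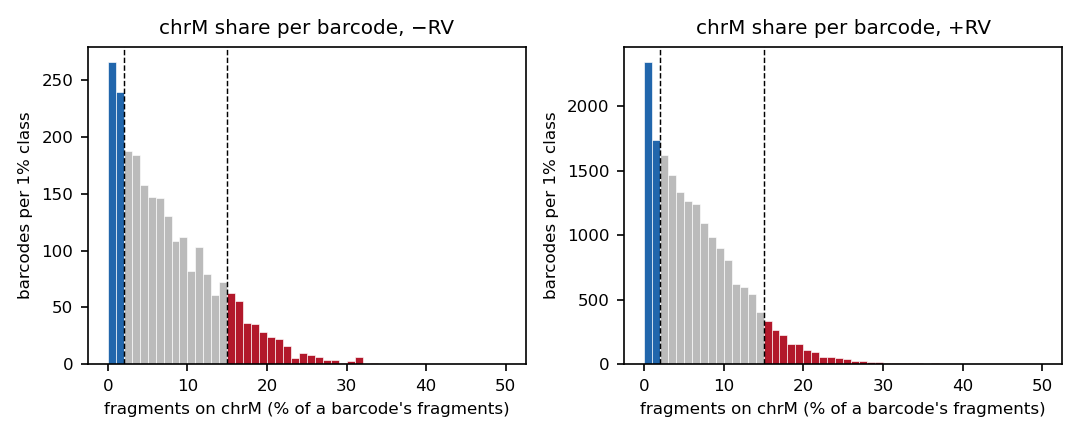
Number of barcodes (vertical axis) in each class of chrM share (horizontal axis) without (left) and with (right) reverse crosslinking; dashed lines mark 2% and 15%, with low barcodes in blue and high barcodes in red. Neither limit falls in a gap of the distribution, and the highest shares are 39.8% and 48.1%.

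As the histogram of shares shows, the limits cut through dense parts of the distribution. On either side of the upper limit the nearest barcodes lay at 14.9915% and 15.0094% in −RV, and at 14.9933% and 15% in +RV. At the lower limit they lay at 2% and 2.02% in −RV and at 2% and 2.00167% in +RV. No chrM fragment at all was seen in 13 of the low barcodes of −RV and 160 of those of +RV. Each of the 20 Tn5 reactions held barcodes of both groups, and in +RV the high share of a reaction ran from 6.26% to 12.4% of its barcodes and the low share from 18.6% to 24.4%. In −RV the high share ran from 5.83% to 25.8% and the low share from 12.7% to 26.7%. Reactions of −RV were small, with 7 to 34 high and 7 to 58 low barcodes, so ratios within them rest on few fragments.

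Total depth was close between the groups, at a median of 634.5 fragments per high barcode against 618 per low barcode in −RV and 670 against 673 in +RV. Nuclear depth was lower in the high group, with medians of 493.5 against 593.5 and 527 against 650. At similar total depth this follows from the choice by chrM share and is a description only. All further levels are therefore CPM, that is, fragments per 1000000 nuclear fragments of the group. The scale was 187207 nuclear fragments for the high and 341985 for the low group in −RV, and 1038233 and 3124680 in +RV. Only 2 barcode sequences occurred in both sets.

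The following promoters are shown because they belong to 4 red cell genes with a higher CPM in the high group of +RV: Klf1, a transcription factor of red cell precursors, Hemgn, a nuclear protein of blood-forming cells, and the blood group proteins Rhag and Kel. RefSeq sequences (GRCm38.p6, the assembly behind mm10) run from 250 bases before to 50 bases after the start site on the gene's own strand. Capitals mark the motifs AGATAA and TGATAA, bound by GATA factors, searched on both strands. Of 31396 promoters of this length on chromosomes 1 to 19, 18.6% hold such a motif. Of the 10 erythroid genes with a RefSeq promoter, 8 have it in at least 1 of their promoters. The first value is per promoter and the second per gene, so they are not the same measure. A match is a run of letters and no evidence of binding.
Klf1 promoter, chr8:84901732-84902031, plus strand: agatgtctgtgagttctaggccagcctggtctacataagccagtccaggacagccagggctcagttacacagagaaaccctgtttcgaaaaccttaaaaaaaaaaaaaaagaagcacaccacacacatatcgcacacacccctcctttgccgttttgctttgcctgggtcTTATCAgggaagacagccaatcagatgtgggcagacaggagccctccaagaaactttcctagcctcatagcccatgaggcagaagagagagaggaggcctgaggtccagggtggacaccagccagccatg
Hemgn promoter, chr4:46404134-46404433, minus strand: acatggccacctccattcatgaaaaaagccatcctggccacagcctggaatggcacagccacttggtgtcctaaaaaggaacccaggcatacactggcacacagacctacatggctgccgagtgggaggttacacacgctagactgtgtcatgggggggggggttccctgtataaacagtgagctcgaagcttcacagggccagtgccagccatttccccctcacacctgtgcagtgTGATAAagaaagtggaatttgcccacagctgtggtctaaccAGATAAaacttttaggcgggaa
Rhag promoter, chr17:40810899-40811198, plus strand: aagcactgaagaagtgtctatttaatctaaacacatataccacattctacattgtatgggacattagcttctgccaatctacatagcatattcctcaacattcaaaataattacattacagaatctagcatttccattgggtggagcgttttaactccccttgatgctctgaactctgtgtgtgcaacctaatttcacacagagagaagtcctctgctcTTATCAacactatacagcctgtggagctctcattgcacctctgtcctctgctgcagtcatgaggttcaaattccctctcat
Kel promoter, chr6:41704276-41704575, minus strand: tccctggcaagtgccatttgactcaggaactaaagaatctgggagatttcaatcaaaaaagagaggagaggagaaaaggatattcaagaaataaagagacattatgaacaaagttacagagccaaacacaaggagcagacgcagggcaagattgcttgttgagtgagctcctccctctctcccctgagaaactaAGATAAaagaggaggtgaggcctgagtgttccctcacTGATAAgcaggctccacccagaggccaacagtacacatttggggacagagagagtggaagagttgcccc

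Fragments centred in these 300 bases were few. In +RV, Klf1 had 5 in the high and 2 in the low group, Hemgn 6 and 2, Rhag 6 and 3, and Kel 6 and 4, although the low group held more nuclear fragments. In −RV only 1 fragment, at Klf1 in the high group, fell into any of the 4 sequences.

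Nuclear fragments of the high group lay more often at promoters in both sets. Promoter windows, which spanned 1000 bp before and 200 bp after each start site, took 15.8% against 12.4% of nuclear fragments in −RV, high against low, a ratio of 1.27 (1.25 to 1.29). In +RV they took 17.8% against 14.1%, a ratio of 1.26 (1.25 to 1.26). Within single Tn5 reactions the ratio ran from 1.19 to 1.41 in −RV and from 1.21 to 1.33 in +RV, above 1 in 20 of 20 reactions of each. Insertions right at start sites, relative to those near 2000 bp away, were 12.5-fold against 9.55-fold enriched in −RV and 14.6-fold against 10.7-fold in +RV. Barcodes had been kept by a fraction of fragments near start sites. The promoter shares, the ratios within reactions and this enrichment are therefore not independent of that selection and are given as a description.

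The authors kept barcodes above a limit on the fraction of fragments near start sites. The limits given by the study and by the deposited sets were not met by every barcode in the promoter windows used here, where the lowest share of all fragments was 6.46% in the high and 6.103% in the low group of −RV, and 6.74% and 4.68% in +RV. Of all fragments, chrM included, the median promoter share was 12.04% in high and 11.34% in low barcodes of −RV, and 13.46% and 13.02% in +RV, so the groups differed less on that scale. The part of this selection in the difference was not tested. Distal sites, that is, peaks of the bulk libraries of the same condition outside promoters, took 6.52% against 5.82% in −RV (1.12, 1.097 to 1.15) and 9.99% against 9.44% in +RV (1.06, 1.05 to 1.07). Fragments longer than the DNA wound on a single nucleosome core made up 2.71% against 2.14% in −RV (1.27, 1.22 to 1.31) and 20.6% against 20.4% in +RV (1.01, 1.004 to 1.01).

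Gene accessibility was counted from 5000 bp upstream of a gene to 500 bp past its end. These windows together took 61.7% against 60.6% in −RV and 62.2% against 62.2% in +RV. In +RV, 13714 genes had at least 50 fragments over both groups, with a median log2 ratio of high over low of 0.00. Of them, 1295 (9.44%) were at least 1.5-fold higher in the high group and 1784 (13%) at least 1.5-fold higher in the low group. In −RV, 1288 genes reached 50 fragments, of which 164 (12.7%) were higher and 183 (14.2%) lower in the high group, with a median log2 ratio of -0.02. At promoters alone the median log2 ratio of 5592 genes in +RV was 0.38, and 1835 (32.8%) passed 1.5-fold upward against 181 (3.24%) downward. In −RV only 5 genes reached 50 promoter fragments, of which 3 (60%) passed upward and 0 (0%) downward.

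**Figure D2:**
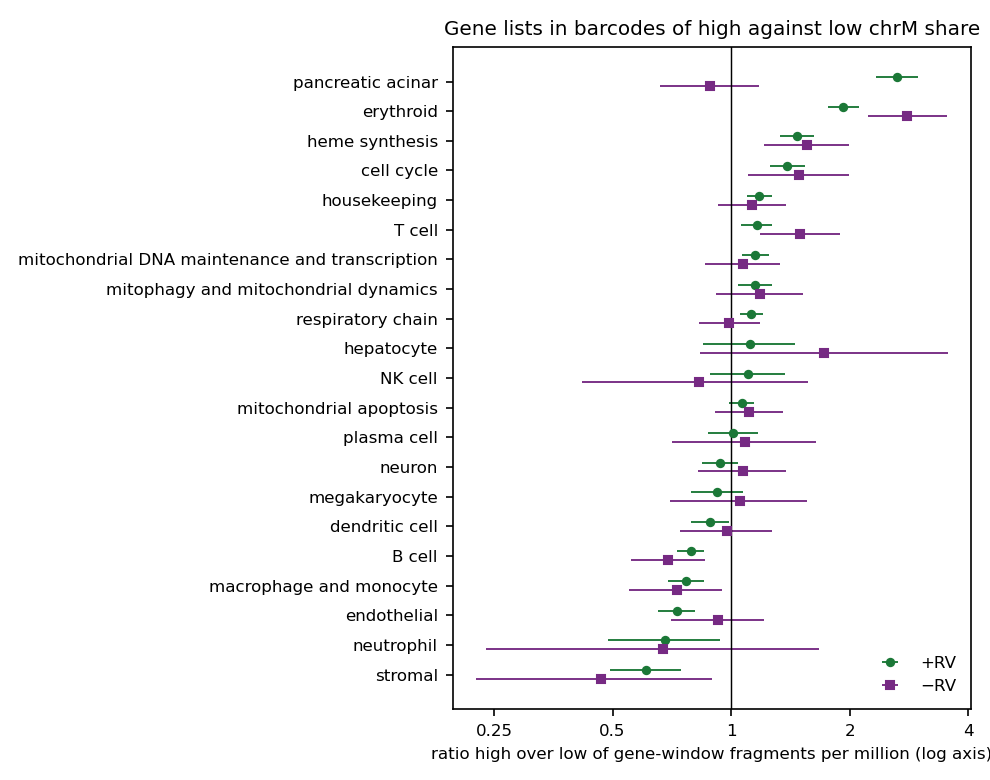
Ratio of high over low (horizontal log axis) of the fragments in the gene windows of 21 gene lists (vertical axis), in +RV and −RV, with bars for the 95% exact interval of counting error. Erythroid genes sit right of 1 in both sets at 1.93 and 2.798, stromal genes sit left of 1 at 0.608 and 0.466, and acinar genes are at 2.65 in +RV but 0.883 in −RV.

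Erythroid genes were more accessible in the high group of both sets. Fragments at the 15 matched genes of the list stood at 759.9 against 394 CPM (high against low) in +RV, a ratio of 1.93 (1.76 to 2.11), and at 1031 against 368 CPM in −RV, a ratio of 2.798 (2.22 to 3.53). All 15 had a higher CPM in the high group of +RV, and 14 of 15 did in −RV. Of the 13 with at least 50 fragments in +RV, 9 were at least 1.5-fold higher and 0 lower, beside 9.44% upward and 13% downward among all genes, with a median log2 ratio of 0.999 beside 0.00. Within single Tn5 reactions the list's ratio was above 1 in 19 of 20 of +RV (0.997 to 4.41) and 18 of 20 of −RV (0.826 to 9.597). A sum over barcodes cannot tell more barcodes of a cell type from more fragments per barcode.

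Genes of the red cell membrane were among those with the highest ratios. The anion exchanger Slc4a1, or band 3, stood at 37.6 against 11.5 CPM in +RV (3.26, 2.02 to 5.28) and 58.8 against 8.77 CPM in −RV (6.698, 1.77 to 37.4). The high group was thus above the low group in each set.

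Kel stood at 33.7 against 9.28 CPM in +RV (3.63, 2.16 to 6.16), and in −RV at 3.65 with an interval that includes 1. Rhag, a membrane protein of the Rh complex, was at 2.59 (1.78 to 3.76) in +RV. Sptb, a spectrin chain of the skeleton under the membrane, was at 1.799 (1.41 to 2.28) in +RV and at 2.37 (1.28 to 4.49) in −RV. Ank1, the ankyrin that ties spectrin to band 3, was at 1.46 (1.14 to 1.85) and 2.88 (1.57 to 5.42). Ermap, a blood group protein, was at 1.47 (1.002 to 2.13) and Epb42, another skeleton protein, at 1.45 (0.709 to 2.84) in +RV, so the membrane genes shared a direction but not a size.

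Regulators had a wide range of ratios. Tal1, a transcription factor of blood stem cells and red cell precursors, was at 2.24 (1.48 to 3.37) in +RV and 3.13 (1.14 to 9.39) in −RV. Klf1 was at 1.79 (1.14 to 2.76) in +RV and 1.83 (0.547 to 6.103) in −RV. Hemgn stood at 52.97 against 16.3 CPM in +RV (3.25, 2.18 to 4.85) but at 37.4 against 38.01 CPM in −RV (0.984, 0.332 to 2.65), the only erythroid gene not above 1 there. Uptake and enzyme genes had lower ratios in +RV. Tfrc, the transferrin receptor for iron uptake, was at 1.44 (0.992 to 2.07), the carbonic anhydrase Car2 at 1.38 (0.993 to 1.91) and the erythropoietin receptor Epor at 1.15 (0.557 to 2.24), each with an interval that includes 1. In −RV Car2 had 15 and 6 fragments (4.57, 1.67 to 14.4).

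Outside the list, Aqp1, the water channel of the red cell membrane, stood at 60.7 against 15.04 CPM in +RV (4.03, 2.72 to 6.02) and at 4.11 (1.15 to 18.3) in −RV. Nfe2, an erythroid and megakaryocyte transcription factor, had a promoter ratio of 3.73 (2.48 to 5.62) in +RV. In −RV its promoter ratio was 2.92 (0.843 to 11.4) on 8 and 5 fragments, an interval that includes 1. Its gene-window ratio was 2.66 (1.93 to 3.66) in +RV and 3.43 (1.36 to 9.33) in −RV. Aqp1 was among the highest gene windows of +RV and Nfe2 among the highest promoters.

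Heme synthesis starts and ends inside mitochondria, and its genes were also higher in the high group, at 601 against 409 CPM in +RV (1.47, 1.33 to 1.62) and 652 against 418 CPM in −RV (1.56, 1.21 to 1.998). Of 11 matched genes, 6 were at least 1.5-fold higher and 0 lower in +RV, beside 9.44% upward and 13% downward among all genes, with a median log2 ratio of 0.67 beside 0.00. Among the 15 high and 38 low barcodes of −RV with at least 1000 nuclear fragments the list was at 0.946 (0.4098 to 2.01). Its ratio was above 1 in 17 of 20 Tn5 reactions of +RV and 16 of 20 of −RV. Fech, ferrochelatase, which inserts iron in the last step, had the highest ratio at 71.3 against 35.5 CPM (2.01, 1.47 to 2.72). The mitochondrial carriers Abcb10 and Slc25a38 were at 1.85 (1.38 to 2.45) and 1.79 (1.26 to 2.52). Uros, an enzyme of the middle steps, was at 1.59 (1.16 to 2.15), and Ppox, of the last step but one, at 1.62 (1.12 to 2.32). Lower in the order stood Alad at 1.44, Cpox at 1.24, the iron carrier Slc25a37 at 1.17 and Urod at 0.9504. Alas1, the form of the first enzyme used by all cells, was lowest at 21.2 against 29.4 CPM (0.7197, 0.4302 to 1.16). In −RV 10 of the 11 genes had a higher CPM in the high group.

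**Figure D3:**
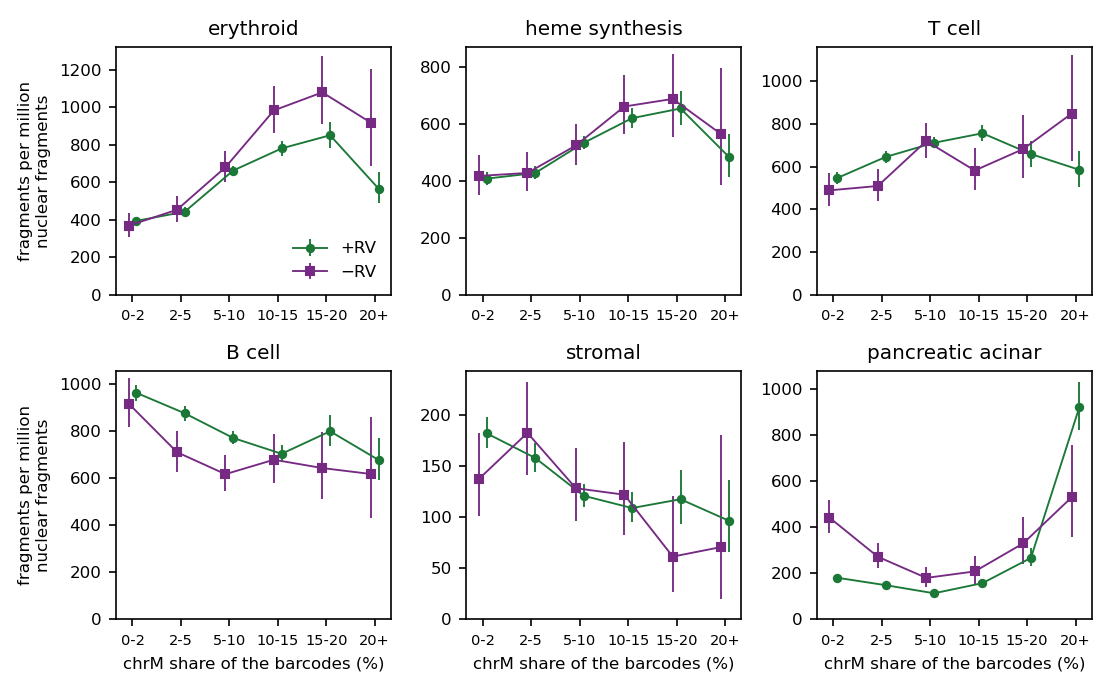
CPM of nuclear fragments (vertical axes, from 0) of 6 gene lists in barcodes of rising chrM share (horizontal axes, 6 classes), in +RV and −RV, with 95% exact Poisson intervals. Erythroid genes go from 394 to 851 CPM up to the class of 15% to 20% in +RV and stand at 566 CPM above it, whereas acinar genes reach 922 CPM only above 20%.

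The levels over 6 classes of chrM share, plotted by list, did not follow 1 course. In +RV the erythroid list stood at 394 CPM up to 2%, 443 from 2% to 5%, 663 from 5% to 10%, 781 from 10% to 15% and 851 (784 to 922) from 15% to 20%, but at 566 (488 to 653) in the 522 barcodes at 20% and above. In −RV it went from 368 to 1079.8 CPM over the first 5 classes and stood at 918 (686 to 1204) in the 112 barcodes of the last. Heme genes had the same order in +RV, with 409 CPM in the first, 656 in the fifth and 485 in the last class. At the limits themselves, erythroid levels of +RV were 819 CPM from 14% to 15% and 783 from 15% to 16%, and 447 from 1% to 2% beside 432 from 2% to 3%.

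Pancreatic acinar genes, which belong to a neighbouring organ, had the highest list ratio of +RV, while in −RV their interval included 1. The 11 matched genes took 476 against 179.9 CPM in +RV, a ratio of 2.65 (2.34 to 2.99), and 389.9 against 442 CPM in −RV, a ratio of 0.883 (0.658 to 1.18). All 8 members with at least 50 fragments in +RV were at least 1.5-fold higher, beside 9.44% of all genes. Cela1, an elastase, had 164 and 183 fragments, or 158 against 58.6 CPM (2.697, 2.17 to 3.35), and without it the list was at 2.62 (2.25 to 3.05). The carboxypeptidase Cpa1 was at 52.97 against 12.8 CPM (4.14, 2.704 to 6.38), Ctrb1, chymotrypsinogen, at 3.45 (2.12 to 5.64), and Ptf1a, a transcription factor of acinar cells, had 15 and 12 fragments (3.76, 1.64 to 8.802). In −RV, Cela1 was at 118 against 146 CPM, and Cpa1 and Ctrb1 had ratios of 1.04 and 0.984. Prss1, trypsinogen, was near 0 everywhere, with 0 and 3 fragments in +RV.

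The acinar signal was higher at both ends of the chrM share than in the middle. In +RV it was 179.9 CPM up to 2%, 112 from 5% to 10%, 266 (229 to 307) from 15% to 20% and 922 (821 to 1031) at 20% and above. In −RV it was 442 CPM up to 2%, 179 from 5% to 10%, 329 (238 to 444) from 15% to 20% and 529.7 (357 to 756) above. Of the 195 barcodes of +RV with at least 3 acinar fragments, the quartiles of the chrM share were 1.805% and 18.7%, against 2.33% and 9.95% for all barcodes. The +RV ratio was 4.39 (3.59 to 5.36) among barcodes with at least 1000 nuclear fragments, 2.13 (1.84 to 2.48) without the 5% deepest barcodes and 1.57 (1.43 to 1.73) with limits of 10% and 4%.

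B cell genes were less accessible in the high group. The 16 genes took 761 against 964 CPM in +RV, a ratio of 0.789 (0.729 to 0.854), and 636 against 918 CPM in −RV, a ratio of 0.692 (0.556 to 0.858), although promoters alone gave 1.15 (0.642 to 2.01) in −RV on 22 and 35 fragments. Of the 16, 4 were at least 1.5-fold lower and 0 higher in +RV, beside 9.44% upward and 13% downward among all genes, with a median log2 ratio of -0.37 beside 0.00. Within Tn5 reactions the ratio was below 1 in 17 of 20 of +RV (median 0.804) but in only 12 of 20 of −RV, where the median of 0.913 lay above the interval of the pooled ratio. Among −RV barcodes with at least 1000 nuclear fragments it was 0.194 (0.0384 to 0.607). Ebf1 and Pax5, which set B cell identity, were at 0.703 (0.597 to 0.825) and 0.661 (0.5197 to 0.834) in +RV and at 0.623 (0.397 to 0.952) and 0.3399 (0.138 to 0.731) in −RV. The kinase Blk was at 0.613 (0.408 to 0.896), and Spib, Cd37 and Cd79a were at 0.746, 0.615 and 0.744 with intervals that include 1. Cr2 (1.14) and Pou2af1 (1.32) had ratios above 1, again with intervals that include 1.

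T cell genes had ratios above 1 as a list, at 635 against 546 CPM in +RV (1.16, 1.06 to 1.27) and 732 against 488 CPM in −RV (1.499, 1.19 to 1.89), but at 0.881 (0.698 to 1.102) among +RV barcodes with at least 1000 nuclear fragments and at 0.953 (0.432 to 1.996) at promoters of −RV. Of 12 genes with at least 50 fragments in +RV 1 was at least 1.5-fold higher and 0 lower, near or under the 9.44% upward and 13% downward among all genes. It was the cytokine receptor gene Il7r at 1.59 (0.976 to 2.53). The list was above 1 in 16 of 20 Tn5 reactions of +RV and 17 of 20 of −RV. Lef1, a transcription factor of naive T cells, was at 1.37 (1.07 to 1.76). Cd3d and Lck, of the T cell receptor and its signalling, were at 1.48 and 0.974 in +RV and at 6.39 and 2.25 in −RV. No gene of the list reached 50 fragments in −RV, so the ratios of single genes there rest on few fragments. Over the classes of +RV the T cell list was highest from 10% to 15%, at 756 CPM, and lower on either side, at 546 CPM up to 2% and 584 CPM at 20% and above. The NK list was at 1.105 (0.885 to 1.37) in +RV and 0.8304 (0.419 to 1.57) in −RV.

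Gene lists of phagocytes and of vessel cells of the spleen were lower in the high group in gene windows of +RV. Macrophage and monocyte genes were at 426 against 553 CPM in +RV (0.7703, 0.692 to 0.856) and 417 against 573 CPM in −RV (0.727, 0.552 to 0.9498), with 5 of 10 members at least 1.5-fold lower in +RV and 0 higher, beside 9.44% upward and 13% downward among all genes. They were below 1 in 17 of 20 Tn5 reactions of +RV and 15 of 20 of −RV, but at 1.32 (0.524 to 3.103) among −RV barcodes with at least 1000 nuclear fragments. Hmox1, which breaks down heme, was at 0.596 (0.349 to 0.9696). Dendritic cell genes were at 0.885 (0.793 to 0.986) in gene windows and 1.04 (0.768 to 1.38) at promoters of +RV and were split, with Irf8 at 0.478 (0.333 to 0.669) and Flt3 at 0.548 (0.393 to 0.751) but Zbtb46 at 1.33 (1.05 to 1.67). Neutrophil genes were at 0.681 (0.487 to 0.936) on 48 and 212 fragments in +RV but at 1.23 (0.549 to 2.55) at promoters, and the receptor Csf3r had 1 and 52 fragments. In −RV the dendritic cell list was at 0.974 (0.743 to 1.27) and the neutrophil list at 0.673 (0.239 to 1.67), both with intervals that include 1. Endothelial genes were at 390.1 against 536 CPM in +RV (0.728, 0.651 to 0.812), with Cdh5, VE-cadherin, at 0.549 (0.367 to 0.799) and Pecam1 at 0.703 (0.567 to 0.864), and at 0.924 (0.702 to 1.21) in −RV, where Pecam1 was at 1.68.

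Stromal genes had the lowest list ratio in both sets, 111 against 182 CPM in +RV (0.608, 0.493 to 0.744) and 64.1 against 137 CPM in −RV (0.466, 0.225 to 0.893). Every one of the 12 members with a fragment in +RV had a lower CPM in the high group, and 2 of the 6 with at least 50 fragments were at least 1.5-fold lower and 0 higher, beside 9.44% upward and 13% downward among all genes. The ratio was below 1 in 17 of 20 Tn5 reactions of +RV and 12 of 17 of −RV. Among −RV barcodes with at least 1000 nuclear fragments it was 1.06 (0.101 to 6.47). Pdgfrb, the receptor of mural cells, had 18 and 110 fragments (0.492, 0.281 to 0.815). Tlx1, Tcf21 and Nkx2-5, transcription factors needed for the spleen to form, had 1 and 27, 1 and 26, and 2 and 27 fragments. The list rests on 115 and 569 fragments in +RV and on 12 and 47 in −RV. Ccl19 had no fragment in any group.

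Nuclear genes for mitochondrial proteins differed little in gene windows. The 30 respiratory chain genes took 1128 against 1002 CPM in +RV (1.13, 1.05 to 1.205) and 1026 against 1035 CPM in −RV (0.991, 0.827 to 1.18). Of the 30, 3 were at least 1.5-fold higher and 1 lower in +RV, beside 9.44% and 13% of all genes, with a median log2 ratio of 0.17. Cox5b, a subunit of cytochrome c oxidase, and Atp5h and Sdhd, of the ATP synthase and of succinate dehydrogenase, were highest at 1.69, 1.53 and 1.53, and Uqcrc1, of the cytochrome bc1 complex, was lowest at 0.658, all with intervals that include 1. Genes that copy and read mitochondrial DNA stood at 1.15 (1.06 to 1.25) in +RV and 1.07 (0.8601 to 1.33) in −RV. Tfam, which packs mitochondrial DNA, was at 0.959 (0.609 to 1.47), the exonuclease gene Mgme1 at 1.59 (1.19 to 2.12) and the transcription factor gene Tfb2m at 1.59 (1.14 to 2.19).

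Mitophagy and dynamics genes were at 1.15 (1.04 to 1.27) in +RV and 1.18 (0.914 to 1.53) in −RV, with 2 of 13 higher and 0 lower in +RV, beside 9.44% upward and 13% downward among all genes. Bnip3l, or Nix, the receptor through which maturing red cells clear mitochondria, was at 1.35 (0.966 to 1.86), the kinases Ulk1 and Pink1 were at 1.62 (1.19 to 2.198) and 1.58 (0.983 to 2.51), and the adaptor Sqstm1 was lowest at 0.711 (0.461 to 1.07). Genes of the mitochondrial route to cell death were at 1.06 (0.989 to 1.14) and 1.11 (0.908 to 1.35), with 2 of 15 higher and 2 lower in +RV, a split near the 9.44% upward and 13% downward among all genes. Mcl1 and Casp9 were at 1.64 and 1.64 there, while the pore protein gene Bak1 had 11 and 82 fragments (0.404, 0.194 to 0.761) and Pmaip1 had 9 and 78 (0.347, 0.153 to 0.694).

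Cell cycle genes were higher in the high group, at 516 against 371 CPM in +RV (1.39, 1.25 to 1.54) and 465 against 313 CPM in −RV (1.49, 1.11 to 1.99). Of 12 members with at least 50 fragments in +RV 6 were at least 1.5-fold higher and 0 lower, beside 9.44% upward and 13% downward among all genes, among them Ccnb1 at 1.93 (1.22 to 3.03), Cdk1 at 1.76 (1.12 to 2.71), Mki67 at 1.74 (1.31 to 2.31) and Pcna at 1.59 (1.13 to 2.22). Among barcodes with at least 1000 nuclear fragments the list was at 0.999 (0.773 to 1.28) in +RV. Housekeeping genes were at 1.18 (1.096 to 1.27) in +RV, and at 1.02 (0.914 to 1.14) when promoter windows were set against all promoter fragments. On that scale the erythroid list was at 2.54 (2.06 to 3.12) and the stromal list at 0.299 (0.159 to 0.524). Megakaryocyte, plasma cell, neuron and hepatocyte genes stood at 0.924, 1.01, 0.938 and 1.12 in +RV, each with an interval that includes 1.

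Per barcode, erythroid fragments were found in more barcodes of the high group. After each barcode was thinned to 400 nuclear fragments, 23.1% (21.03 to 25.3) of 1545 high barcodes of +RV had at least 1 fragment at the list, against 12.8% (11.8 to 13.8) of 4081 low ones; 111 high barcodes were too shallow. Unthinned, the shares were 30.8% and 21.96% at median nuclear depths of 527 and 650. Neuron genes, which spleen cells should not use, gave 16.2% and 17.3% after thinning and hepatocyte genes 2.85% and 2.401%, so a single fragment at a list does not mark a cell type. Read the other way, barcodes of +RV with at least 3 fragments at a list had a median chrM share of 7.88% for erythroid genes (622 barcodes), 5.97% for T cell genes (581 barcodes), 4.06% for B cell genes (1007 barcodes), 3.99% for endothelial genes (331 barcodes), 4.68% for neuron genes (220 barcodes), 6.92% for hepatocyte genes (6 barcodes) and 2.66% for stromal genes (30 barcodes), beside 5.61% over all barcodes.

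**Figure D4:**
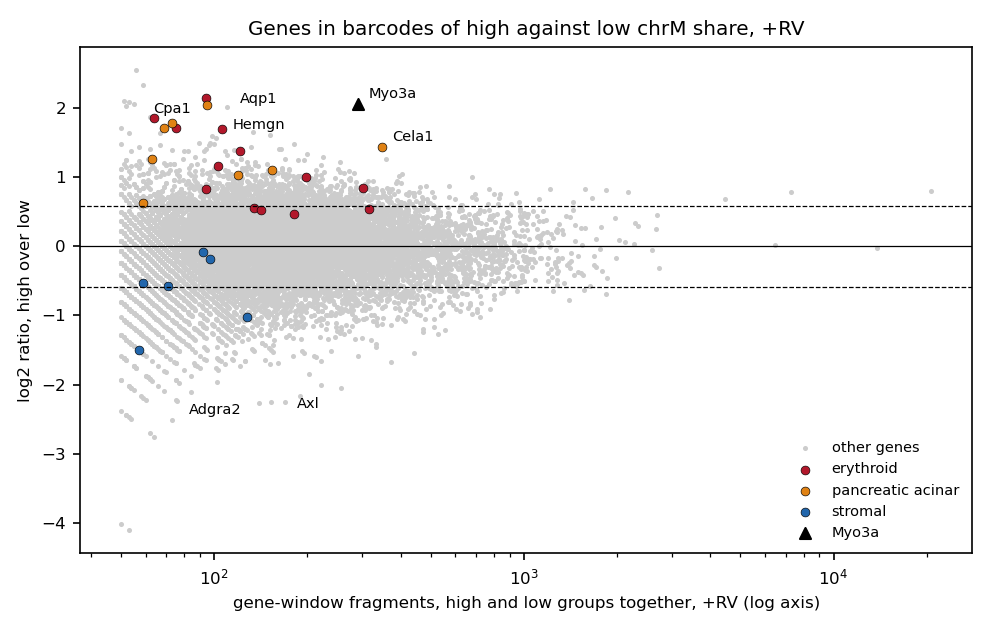
Log2 ratio of high over low (vertical axis) against the gene-window fragments of both groups together (horizontal log axis) for genes with at least 50 fragments in +RV; dashed lines mark 1.5-fold. The erythroid and acinar genes drawn lie above 0, the stromal genes below it, and Myo3a stands at 2.06.

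Among genes with at least 100 fragments in +RV, the 10 highest and 10 lowest log2 ratios are given without a test. The highest was Myo3a, a myosin gene of the inner ear and retina, at 2.06, followed by Aqp1 at 2.01 and Hemgn at 1.70. Fv1 and Miip at 1.65 and 1.61 are neighbours whose windows overlap, so they count in part the same fragments, and their −RV ratios were 1.22 (0.432 to 3.24) and 1.44 (0.5897 to 3.403). AA986860, Med19, Smim1, Tom1l1 and Cela1 followed at 1.56, 1.48, 1.47, 1.44 and 1.43. Smim1 carries the Vel blood group antigen of red cells. In −RV AA986860 and Tom1l1 were also higher, at ratios of 3.65 (1.27 to 11.9) and 3.91 (1.502 to 11.3).

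The lowest log2 ratios belonged to Adgra2, a receptor of vessel growth in the brain, at -2.27, to the receptor kinase Axl at -2.25, to Vstm4 at -2.25, to Afap1l2 at -2.17 and to Grk3 at -2.06. Adamts2, a processing enzyme of collagen, was at -2.002, the myeloid kinase Fes at -1.97, Spns3 at -1.85, Eif2s2 at -1.80 and Slc1a7 at -1.76. Axl, for example, had 11 and 158 fragments in +RV, and 5 and 17 in −RV (0.537, 0.155 to 1.52). All 10 had ratios under 1 in −RV, from 0.114 at Afap1l2 to 0.913 at Adgra2, on 1 to 5 fragments of the high group each. There the intervals of Afap1l2 (0.00272 to 0.735) and Fes (0.00289 to 0.792) excluded 1, and those of all the others included it. At promoters the highest ratios after Fv1 and Miip were those of Hist1h2ae, a histone gene (3.79), Nfe2 (3.73) and Depdc1a (3.44), and the lowest were Eif2s2 (0.279), Fnbp1 (0.301), Sipa1l3 (0.329), Jade2 (0.351) and Tns2 (0.3704), to be read against the median log2 ratio of 0.38.

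Most Myo3a fragments of the high group lay in a stretch of its intron that resembles the mitochondrial genome. BLAST found 100 such stretches on chromosomes 1 to 19, which touch the windows of 44 genes. The stretch in Myo3a (chr2:22587288-22590534) matches chrM at 97.4% of aligned bases and overlaps no exon. Of 169 Myo3a fragments in the high group of +RV 132 lay in it, and of 122 in the low group 18 did. The rest of the gene had 37 and 104 fragments, a ratio of 1.07 (0.715 to 1.57) in place of 4.17. A run of 300 bases of the stretch held 64 of the high and 7 of the low fragments of +RV. They are printed beside the mitochondrial sequence, on its strand (GRCm38.p6), to show how alike both are, and capitals mark the 3 positions where they differ.
Myo3a intron, chr2:22589468-22589767, minus strand: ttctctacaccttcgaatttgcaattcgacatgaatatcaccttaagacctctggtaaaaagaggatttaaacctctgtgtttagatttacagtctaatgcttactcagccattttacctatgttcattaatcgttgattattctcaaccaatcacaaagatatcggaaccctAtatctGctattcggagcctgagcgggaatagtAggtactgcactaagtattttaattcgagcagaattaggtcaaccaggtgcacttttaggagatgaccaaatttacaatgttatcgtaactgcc
Mitochondrial genome, chrM:5208-5507, plus strand: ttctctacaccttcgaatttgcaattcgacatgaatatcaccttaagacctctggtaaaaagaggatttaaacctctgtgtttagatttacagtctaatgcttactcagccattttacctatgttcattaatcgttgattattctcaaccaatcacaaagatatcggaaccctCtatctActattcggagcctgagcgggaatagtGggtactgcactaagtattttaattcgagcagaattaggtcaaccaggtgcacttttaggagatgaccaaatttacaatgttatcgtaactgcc

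**Figure D5:**
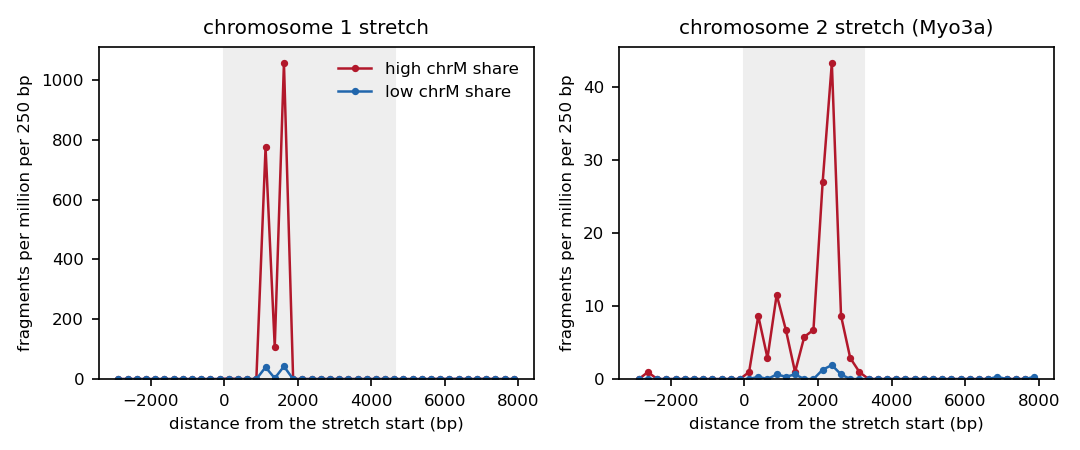
CPM of nuclear fragments per 250-bp step (vertical axes, from 0) by distance from the start of the 2 longest stretches similar to chrM (grey bands) in +RV, for high and low barcodes. Fragments of the high group reach far above those of the low group inside parts of both bands. On chromosome 1 nearly all fragments of either group lie 1000 to 1750 bp from the start, and most of the band holds none.

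The longest stretch, chr1:24611535-24616188, lies in no protein-coding gene and matches chrM positions 6390 to 11042 with 2 mismatched bases and 1 gap. It held 2015 fragments in the high and 266 in the low group of +RV, a ratio of 22.8 (20.1 to 26.01), and 599 and 39 in −RV, a ratio of 28.1 (20.3 to 39.9). Among 5000-bp bins with at least 50 fragments its bin ranked first in both sets, and that of Myo3a was next in +RV, as the profile along both stretches shows. Of the fragments on either copy, 35.8% of the high and 39.3% of the low group in +RV were placed on chromosome 1. The next longest stretch, chr4:80002330-80005200, held 18 and 4 fragments in +RV.

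All stretches together took 0.217% of the nuclear fragments of the high and 0.0109% of the low group in +RV, and 0.338% and 0.0129% in −RV. Since fragments on the mitochondrial genome chose the groups, these ratios may not be independent of the choice and are given only as values. When genes touching a stretch were left out, 1293 genes were at least 1.5-fold higher and 1778 lower in the high group of +RV, close to the counts with them. Of the genes of the 21 lists, only Mrc1, of the macrophage list, holds a stretch between its start and end.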

How the data were processed

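scATAC-Seq fragment positions with their barcodes were used as deposited by the authors (start and end in mm10, not normalized), 1 pooled set for −RV and 1 for +RV. Per the labels and the study's methods, the authors aligned reads with BWA, removed duplicates and kept barcodes with at least 500 unique fragments and a fraction near start sites. The submitters' processing notes also name Bowtie2 2.4, Picard 1.119, SAMtools 1.15, SEACR 1.3.

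Nuclear fragments on chromosomes 1 to 19 were assigned by their centre to the windows of 20780 protein-coding genes (GENCODE vM21), 5000 bp upstream to 500 bp past the end, and to promoters, 1000 bp upstream to 200 bp downstream of 52114 start sites. Group sums were divided by all nuclear fragments of the group. Ratios carry exact conditional binomial intervals, CPM exact Poisson intervals and shares exact Clopper-Pearson intervals, all at 95%. A gene was counted as higher or lower from 1.5-fold, with at least 50 fragments over both groups and a group at 0 set to a floor of 3, with no test. Doublets were not called. Similarity to chrM was searched with BLAST 2.17.0 (word size 16, e-value 1e-05). Other steps used Python 3.11.15, numpy 2.4.6, scipy 1.17.1, pandas 2.3.3 and matplotlib 3.10.9. The 1.5-fold calls and the ratio intervals were tried on simulated, independent gene counts. The assignment of fragments to windows was not tried in this way.

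Of 299 listed genes, 290 matched. Gata1 and Alas2 and the other unmatched genes were not analysed here. Some list members are not reported here by name. Members and lists were chosen with earlier results of these data known. Genes named by rule were, of each list, the 3 with the most fragments per kb, the 10 highest and 10 lowest gene ratios from 100 fragments, the 5 highest and 5 lowest promoter ratios from 50 fragments, and the 3 highest and 3 lowest members of the erythroid, heme and mitochondrial lists. Other list members were named after their values were seen. Alternatives changed the limits, depth, minimum, window, scale and repeats.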

Additional observations from a re-analysis of the deposited data

Results flagged for a closer look

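The acinar list ratio of high over low lay on opposite sides of 1 in the 2 sets, 2.65 in +RV and 0.883 in −RV, and this contrast between the sets drew attention to it. The difference was not tested, since each condition is 1 pooled sample. In +RV 19 of 20 Tn5 reactions with a value had a ratio above 1, and in −RV 6 of 19 did.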

How the results depend on the processing

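The 2 sets hold pooled barcodes, so nothing here has a replicate check, and group levels of one set cannot be tested against the other. Intervals cover counting error only, and a group near 500 nuclear fragments per barcode gives few fragments per gene. No paired analysis was possible because the fragments of the 2 libraries of a condition were pooled before deposit, which leaves no pairing by library; the Tn5 reactions are the only shared unit. Counting repeated positions once, scaling to all gene windows, leaving out genes that touch a stretch similar to chrM, leaving Cela1 out of the acinar list and, in +RV, taking the median over Tn5 reactions kept the direction of each result computed, except that the hepatocyte median over reactions was 0.989 against 1.12, and moved none beyond its interval or, for counts of genes, beyond 1.5 times. Leaving Cela1 out was chosen after seeing the data, as was leaving the stretch out of Myo3a. Medians over the Tn5 reactions of −RV left the interval for promoter share (1.296), B cell (0.913), NK (0.141), neutrophil (0), stromal (0) and hepatocyte (0.757). Some of these reactions held as few as 7 high barcodes. All other values that moved, that is, left the 95% interval of the reported value or changed a count by over 1.5 times, are given here as ratios of high over low or as counts of genes at 1.5-fold, and the cause was not tested. Reversed means only that the value crossed 1, and is used only where the interval of the reported ratio excluded 1. Every interval given in the sections above for a reversed value includes 1, so a reversed value need not be a difference in the other direction. Lists whose reported interval included 1 also crossed 1 in some settings and stand among the moved or unmoved values. Only 15 high and 38 low barcodes of −RV, and 135 and 619 of +RV, had 1000 nuclear fragments. The number of genes that reach the minimum also changes with the setting and is not given beside the counts below. A changed count of genes therefore need not be a changed share of genes. Among barcodes with at least 1000 nuclear fragments, the −RV values that moved were promoter share 1.201, B cell 0.194, dendritic cell 2.04, neutrophil 0, megakaryocyte 1.59, acinar 1.37, cell cycle 2.04, housekeeping 1.82, hepatocyte 0, mitochondrial DNA genes 1.96, mitophagy 0.9101, apoptosis 0.822, genes higher 3, genes lower 0. Direction reversed there in −RV for T cell 0.836, macrophage 1.32, stromal 1.06, heme 0.946. Among barcodes with at least 1000 nuclear fragments, the +RV values that moved were promoter share 1.27, dendritic cell 0.6896, erythroid 1.48, plasma cell 0.864, acinar 4.39, housekeeping 1.095, respiratory chain 1.005, mitochondrial DNA genes 1.39, genes higher 630, genes lower 830. Direction reversed there in +RV for nucleosome-length fragments 0.992, T cell 0.881, cell cycle 0.999. With limits of 10% and 4%, the −RV values that moved were promoter share 1.18, nucleosome-length fragments 1.196, genes higher 588, genes lower 439. With limits of 10% and 4%, the +RV values that moved were promoter share 1.16, acinar 1.57, genes higher 716. Within the middle range of promoter shares, the −RV values that moved were acinar 0.514. Within the middle range of promoter shares, the +RV values that moved were B cell 0.675, erythroid 1.69, cell cycle 1.14, housekeeping 1.06, respiratory chain 1.01, mitophagy 1.04. In promoter windows, the −RV values that moved were neutrophil 1.83, megakaryocyte 1.83, endothelial 0.548, housekeeping 1.53, hepatocyte 0, apoptosis 1.46, genes higher 3, genes lower 0. Direction reversed there in −RV for B cell 1.15, T cell 0.953. In promoter windows, the +RV values that moved were B cell 0.875, T cell 1.39, erythroid 3.19, plasma cell 1.18, stromal 0.376, acinar 3.25, cell cycle 1.79, housekeeping 1.28, neuron 0.666, hepatocyte 2.41, respiratory chain 1.299, mitochondrial DNA genes 1.35, mitophagy 1.403, apoptosis 1.16, heme 1.77, genes lower 181. Direction reversed there in +RV for dendritic cell 1.04, neutrophil 1.23. In promoter windows set against all promoter fragments, an alternative chosen after seeing the data, the +RV values that moved were B cell 0.696, macrophage 0.568, neutrophil 0.976, erythroid 2.54, endothelial 0.589, stromal 0.299, housekeeping 1.02, neuron 0.5301, hepatocyte 1.92, respiratory chain 1.03, apoptosis 0.922, genes higher 556, genes lower 493. After thinning to 400 fragments, the +RV values that moved were promoter share 1.25. Without the 5% deepest barcodes, the +RV values that moved were acinar 2.13. With a minimum of 20 fragments per gene, the −RV values that moved were genes higher 1272, genes lower 1089. With a minimum of 20 fragments per gene, the +RV values that moved were genes lower 2751. With a minimum of 200 fragments per gene, the −RV values that moved were genes higher 5, genes lower 1. With a minimum of 200 fragments per gene, the +RV values that moved were genes higher 324, genes lower 398.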

Other observations

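Apart from both stretches similar to chrM, the 5000-bp bin with the highest ratio of high over low in +RV lay in Aqp1 (chr6:55335001-55340000), with 37 and 15 fragments, a ratio of 7.42. The bin in Dnajc11 (chr4:151960001-151965000) had 38 and 17 fragments, a ratio of 6.73. That in Zfpm1, which encodes the GATA cofactor FOG1 (chr8:122305001-122310000), had 39 and 19 fragments, a ratio of 6.18. Ikzf1, which encodes the lymphoid factor Ikaros, held a bin (chr11:11725001-11730000) with 31 and 21 fragments, a ratio of 4.44. The bin in Zfpm1 also touches Gm20388. Bins above that of Ikzf1 also lay at chr6:122390001-122395000 (6.77) and chr3:113145001-113150000 (5.89), both without a gene, and at Fn3krp and Fn3k (4.51). All these bins were ranked after all values were seen and have no test.

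Fragments on chrM itself differed in length between the groups. Those longer than nucleosome core DNA made up 6.36% in the high and 5.28% in the low group of −RV, and 14.4% and 12.2% of +RV. Their median length was 75 bp in both groups of −RV, and 83 against 80 bp in +RV. Since chrM fragments chose the groups, these lengths are a description only.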
